A study of Mus musculus with 4 samples.

Results

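Blood vessels are lined by endothelial cells and wrapped by pericytes, and both cell types lie inside the mesenchyme of a tooth germ. Endothelial cells are joined by VE-cadherin and claudin-5 and read growth and stability signals through the Vegf receptors and the angiopoietin receptor system. Pericytes are drawn to the vessel wall by platelet-derived growth factor B from the endothelium, which they sense through Pdgfrb. Described here are 10 genes, of 22072 gene names in the tables, that were chosen by name: 8 endothelial genes (Cdh5, Pecam1, Kdr, Flt1, Tek, Tie1, Emcn and Cldn5) and 2 pericyte genes (Rgs5 and Pdgfrb). Their values are FPKM (fragments per kilobase of transcript, scaled to the mapped fragments of the library), summed over the transcript entries of each gene in each library.

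The samples were molar tooth germ mesenchyme of mouse embryos of mixed background at embryonic day 14, taken from frozen head sections by laser capture, which cuts chosen cells out with a laser. The 4 groups were Msx1+/- upper molar and Msx1+/- lower molar (the controls) and Msx1-/- upper molar and Msx1-/- lower molar (the mutants), with 1 library each. The controls therefore carry a mutant Msx1 allele too. No label names that allele or limits it to one tissue. Per the series' design text, RNA was extracted from pools of 3 control and mutant pairs, so each value is already a mean over embryos and has no error of its own. Whether both jaws were taken from the same embryos is not stated. Series of 4 values run through the controls first and the mutants second, with upper before lower molars in each.

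Summed coverage over annotated transcripts ranged from 264 megabases in mutant lower to 410 megabases in control upper molars, and 10118 to 10622 genes reached 1 FPKM in a library. A gene was counted as higher or lower where log2(FPKM + 1) differed by at least 1 between libraries, and all differences below are on that scale. No difference has a replicate check. The median of all genes was shifted by -0.03 from control to mutant upper molars and by -0.39 from control to mutant lower molars, so most genes read lower in the mutant lower library. Msx1 was at 170, 184, 126 and 85.9 FPKM, and the deleted part of the gene is not stated, so it checks no label. Vim and Col1a1, markers of mesenchyme, were at 142 to 219 and 144 to 204 FPKM.

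The endothelial genes differed from the median of all genes by -0.29 to 0.80 in upper and -0.21 to 0.77 in lower molars, with Cldn5 and Tie1 at the upper ends. Rgs5 lay at -0.85 and -1.56 and Pdgfrb at -1.09 in upper molars. Whether the endothelial and pericyte genes differ from each other was not tested. Of the 8 endothelial genes, 0 were counted in any comparison of genotype or jaw. Of all genes tested, 3.27% were lower in mutant upper and 9.41% in mutant lower molars as deposited. In a set of 8 genes, a count of 0 is near those shares and does not set these genes apart. Their summed level was 44.5 FPKM in control upper, 49.7 in control lower, 43.9 in mutant upper and 41.6 in mutant lower molars. The highest of these sums was 1.20 times the lowest, and after rescaling by median of ratios the sums were 42.6, 44.5, 42.2 and 49.9 FPKM, with mutant lower molars now the highest. Rgs5 and Pdgfrb were lower in the mutant libraries in 1 jaw each, Rgs5 in lower and Pdgfrb in upper molars, and the listed values of both in the other jaw lay in the same direction. Relative to the endothelial sum of the same library, Rgs5 stood at 26.5%, 21.7%, 13.6% and 4.98%. In bulk tissue, fewer cells of a type and less RNA per cell cannot be told apart.

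**Figure D1:**
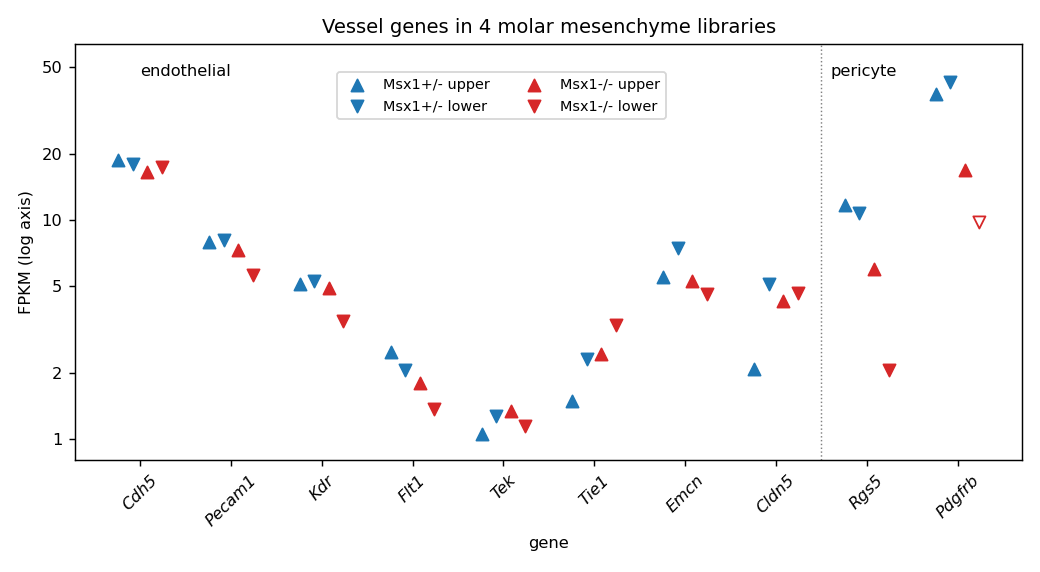
FPKM of each gene (log axis) in the 4 libraries, with upward triangles for upper and downward triangles for lower molars, blue for Msx1+/- and red for Msx1-/-, 1 library per point. The open symbol is the Pdgfrb value in mutant lower molars that is marked as a failed estimate. Cdh5 lies between 16.5 and 18.9 FPKM in every library, whereas Rgs5 spans 2.07 to 11.8 FPKM with both mutants below both controls.

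Of the junction and surface genes, Cdh5 (chromosome 8, 106625525 to 106668402, mm9) was the steadiest of the 10 as deposited. It encodes VE-cadherin, the adhesion protein of endothelial junctions. Its level was 18.9 FPKM in control upper, 18.1 in control lower, 16.5 in mutant upper and 17.4 in mutant lower molars, at a mean read depth of 14.7 to 19.7 per transcript base. Mutant minus control was -0.18 in the upper jaw and -0.05 in the lower jaw. The mutant values lay below both control values as deposited, by less than the size counted, and the lower jaw difference was 0.35 to 0.44 after the 3 rescalings. With median of ratios it was 0.35, against -0.09 for Pecam1, so Cdh5 was not the steadiest on that scale. Cdh5 alone gave 36.5% to 42.4% of the endothelial sum, and without it the sums were 25.6, 31.6, 27.3 and 24.2 FPKM in the same order.

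Pecam1 (chromosome 11, 106515532 to 106576595) encodes the adhesion molecule CD31, which leukocytes and platelets carry as well. It was at 7.96, 8.13, 7.30 and 5.64 FPKM. The mutant lower library was the lowest, and the genotype difference was -0.11 (upper) and -0.46 (lower). Emcn (chromosome 3, 137004042 to 137094033) encodes endomucin, a sialomucin of capillary and venous endothelium. It was at 5.47 and 5.27 FPKM in control and mutant upper molars and at 7.45 and 4.60 FPKM in control and mutant lower molars. The difference was -0.04 (upper) and -0.59 (lower). Relative to the all-gene median of the lower jaw, Pecam1 was at -0.07 and Emcn at -0.21.

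Cldn5 (chromosome 16, 18776940 to 18778355) encodes a claudin that seals endothelial tight junctions. Its level was 2.09 FPKM in control upper molars and 5.09, 4.26 and 4.62 FPKM in control lower, mutant upper and mutant lower molars. The control upper library was thus apart from the other libraries, which lay close together. Upper minus lower was -0.98 in controls and -0.09 in mutants, and mutant minus control was 0.77 in upper and -0.12 in lower molars. None of these reached 1. With a pseudocount of 0.1 in place of 1 the control jaw difference was -1.24 and was counted. The summed epithelial markers were also lowest in control upper molars. The 10 listed genes, of which 5 averaged 1 FPKM or more, summed to 25.0, 41.0, 45.6 and 60.0 FPKM. Krt5 was at 7.18, 17.0, 21.3 and 28.1 FPKM and Krt14 at 8.69, 14.8, 13.3 and 14.5 FPKM. Krt15, higher in both jaws, where 0.399% of all genes were, was at 0.865, 1.94, 3.15 and 9.09 FPKM. Shh was at 0 in both controls and Cdh1 at no more than 0.142 FPKM, both named after their values were seen. Krt5 was counted as higher in upper molars as deposited, where 1.08% of all genes were, and in both jaws when rescaled by median of ratios. On that scale 113 of 10559 genes tested were higher in upper and 212 of 10552 in lower molars. The part of epithelial RNA in the Cldn5 values was not tested.

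The receptor genes form pairs. Kdr and Flt1 encode Vegf receptors, of which Kdr carries most of the growth signal and Flt1 binds Vegfa tightly and limits it. Kdr (chromosome 5, 76329299 to 76374453) was at 5.08, 5.27, 4.91 and 3.46 FPKM. The mutant lower library stood below the other 3, which lay close together, with a genotype difference of -0.04 in upper and -0.49 in lower molars. Flt1 (chromosome 5, 148373772 to 148537564) was at 2.49, 2.07, 1.80 and 1.37 FPKM. Both mutants lay below both controls, with differences of -0.32 and -0.37. The ratio of Kdr to Flt1 was 2.04 in control upper and 2.53 to 2.73 in the other libraries.

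Tek and Tie1 encode the angiopoietin receptor Tie2 and its partner, which has no strong ligand of its own and modulates Tie2. Tek (chromosome 4, 94405991 to 94541630) was the lowest of the 10 in every library, at 1.05, 1.27, 1.34 and 1.15 FPKM. Its mean read depth was 1.03 to 1.46 per transcript base, the shallowest of the 10, which limits its precision. Its genotype difference was 0.19 (upper) and -0.08 (lower). Tie1 (chromosome 4, 118143796 to 118162454) was at 1.49 and 2.32 FPKM in control upper and lower molars and at 2.44 and 3.32 FPKM in mutant upper and lower molars. Both mutants lay above both controls, although control lower and mutant upper molars differed little, and the differences of 0.47 and 0.38 were below the size counted. Of the 8 endothelial genes, Tie1 was the only one above 0 in both jaws as deposited, and after each of the 3 rescalings Tek and Cldn5 were as well. The ratio of Tie1 to Tek was 1.42, 1.82, 1.82 and 2.90 in the same order of libraries.

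The promoters of these receptor pairs are shown because the partners differ in a 6-base sequence, AGGAAG. It is one form of the wider site around GGAA that ETS transcription factors, known regulators of endothelial genes, can bind, and other forms were not searched. Sequences are from RefSeq (GRCm38.p6) and run from 250 bases before to 50 after the gene's start, in the gene's own direction. Capitals mark this motif, or CTTCCT where the motif lies on the other strand. These windows are at chr5:75978406-75978705 (minus strand) for Kdr, chr5:147725962-147726261 (minus strand) for Flt1, chr4:94739039-94739338 (plus strand) for Tek and chr4:118489800-118490099 (minus strand) for Tie1.
Kdr: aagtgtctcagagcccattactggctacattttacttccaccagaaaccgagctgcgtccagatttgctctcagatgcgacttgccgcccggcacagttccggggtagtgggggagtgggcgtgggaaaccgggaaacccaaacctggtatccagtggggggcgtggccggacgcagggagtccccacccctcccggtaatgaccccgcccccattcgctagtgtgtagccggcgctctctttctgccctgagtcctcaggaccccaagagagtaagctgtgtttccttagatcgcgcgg
Flt1: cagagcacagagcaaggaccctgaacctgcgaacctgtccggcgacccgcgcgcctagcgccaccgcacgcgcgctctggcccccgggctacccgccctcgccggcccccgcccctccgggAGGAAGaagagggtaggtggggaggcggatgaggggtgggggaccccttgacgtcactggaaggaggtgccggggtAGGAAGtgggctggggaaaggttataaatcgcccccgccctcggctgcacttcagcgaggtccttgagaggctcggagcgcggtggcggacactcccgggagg
Tek: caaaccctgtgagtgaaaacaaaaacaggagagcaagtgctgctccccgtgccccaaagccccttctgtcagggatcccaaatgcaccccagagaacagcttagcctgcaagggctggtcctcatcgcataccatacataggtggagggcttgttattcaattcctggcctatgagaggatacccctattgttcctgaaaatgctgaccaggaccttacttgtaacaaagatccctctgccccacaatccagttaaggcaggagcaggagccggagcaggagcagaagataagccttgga
Tie1: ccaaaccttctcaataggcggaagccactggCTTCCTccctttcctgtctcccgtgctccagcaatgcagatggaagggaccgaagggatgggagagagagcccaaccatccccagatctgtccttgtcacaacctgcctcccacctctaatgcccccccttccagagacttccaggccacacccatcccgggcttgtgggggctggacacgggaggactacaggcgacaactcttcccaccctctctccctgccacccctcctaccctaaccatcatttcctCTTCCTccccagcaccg
Flt1 held the motif at -129 and -53 on its own strand and Tie1 at -219 and 34 on the opposite strand, counting the first base of each match from the start site. The Kdr and Tek windows held no match to these letters. Promoters were matched for 7 of the 10 genes, and 3 of the 7 (Flt1, Tie1 and Emcn) had the motif, against 35.4% of 32851 promoter windows of 300 bases. Cdh5, Pecam1 and Pdgfrb had no entry.

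Rgs5 and Pdgfrb mark pericytes. Rgs5 (chromosome 1, 171585632 to 171623657) encodes a regulator of G protein signalling that shortens signals from contractile receptors, and is a marker of pericytes and young mural cells. It was at 11.8 FPKM in control upper, 10.8 in control lower, 5.96 in mutant upper and 2.07 in mutant lower molars. Both mutants lay below both controls, and the mutant lower library was the lowest by a wide margin. Mutant FPKM was 0.505 times control in upper and 0.192 times control in lower molars. On the log scale the difference was -0.88 (upper) and -1.94 (lower), so Rgs5 was counted in lower molars alone, where 9.41% of all genes tested were counted as lower. Relative to the all-gene median the differences were -0.85 and -1.56. Over all settings tried the upper value ran from -0.97 to -0.62 and the lower value from -2.33 to -1.16.

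A limma model over the 4 libraries, with genotype and jaw as terms, gave Rgs5 a genotype difference of -1.41 ± 0.32 (SE) and a Benjamini-Hochberg adjusted p of 0.000407. Rgs5 was lower in the mutant in 2 of 2 jaws. In that model, at an adjusted p under 0.05, 458 of 10535 genes (4.35%) were called lower and 125 higher. Of the 9 genes described here that could be fitted only Rgs5 was called, the other adjusted p-values lying between 0.458 and 0.940. The model treats the jaws as replicates of a genotype and has 1 residual degree of freedom per gene, so its error comes from the trend over all genes rather than from Rgs5 itself. The genotype difference of Rgs5 was 1.06 apart between the jaws, a spread that the SE of 0.32 does not take in. The values were fitted as deposited, without rescaling. Upper minus lower was 0.12 in controls and 1.18 in mutants, where 3.2% of genes were counted as higher in upper molars. Rescaling ended that call, as the mutant jaw difference was 0.95 after rescaling by median of ratios, 0.94 with a common upper quartile and 0.98 with a common total.

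The Rgs5 promoter is shown because this gene had the largest mean genotype difference of the 9 genes with estimates in every library. It lies at chr1:169655251-169655550 on the plus strand (RefSeq, GRCm38.p6) and held no AGGAAG on either strand, so all letters are in lower case.
Rgs5: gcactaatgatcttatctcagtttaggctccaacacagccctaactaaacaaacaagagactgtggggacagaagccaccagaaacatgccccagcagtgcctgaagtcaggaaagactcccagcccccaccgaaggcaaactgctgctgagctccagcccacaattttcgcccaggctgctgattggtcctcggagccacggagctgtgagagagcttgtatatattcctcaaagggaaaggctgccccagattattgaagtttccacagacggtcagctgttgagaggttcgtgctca

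Pdgfrb (chromosome 18, 61204804 to 61244721) encodes the receptor for platelet-derived growth factor B. Pericytes depend on it, and mesenchymal cells outside vessels express it as well. It was the most abundant of the 10 in both controls, at 37.9 FPKM in upper and 42.7 FPKM in lower molars, and stood at 16.9 FPKM in mutant upper molars. The table lists 9.76 FPKM for mutant lower molars but marks both of its transcript entries there as failed estimates, so that library was left out of its comparisons. In upper molars the mutant was at 0.446 times the control level, a difference of -1.12, and was counted, as were 3.27% of all genes tested in that direction. With a pseudocount of 5 the difference was -0.97 and was not counted, and in each of the other settings tried it was. In controls upper and lower molars differed by -0.17. Pdgfra, the sister receptor gene of general mesenchyme, was at 15.1, 17.4, 20.4 and 14.7 FPKM, with 0 calls between genotypes. It was chosen after its values were seen.

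**Figure D2:**
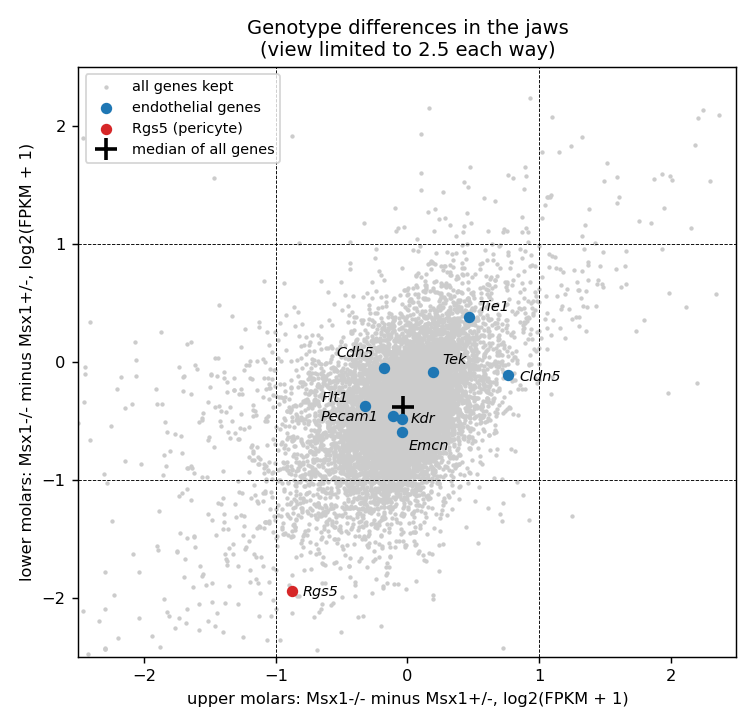
Mutant minus control difference of log2(FPKM + 1) in upper molars (x axis) and lower molars (y axis), 1 point per gene, with all genes kept in grey, the 8 endothelial genes in blue and Rgs5 in red. Dashed lines mark a difference of 1 and the cross the median of all genes. The endothelial genes lie inside the dashed lines around the cross, and Rgs5 lies at -0.88 and -1.94. Pdgfrb is not drawn because its mutant lower value is a failed estimate.

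Across the 10 genes, the comparison of genotypes in upper molars counted 1 lower gene (Pdgfrb) and 0 higher, where 3.27% of all genes tested were lower and 1.08% higher. In lower molars 1 of 9 genes was lower (Rgs5) and 0 higher, where 9.41% of all genes were lower and 0.862% higher. Of the 9 genes with estimates in every library 0 were counted in both jaws, where 1.59% of all genes were lower and 0.399% higher. Between the jaws 0 of 10 genes were counted in controls, where 1.7% of all genes were, and 1 of 9 (Rgs5) was higher in upper molars of mutants, where 3.2% of all genes were. The 8 endothelial genes had a median difference of -0.04 (upper) and -0.24 (lower), beside -0.03 and -0.39 for all genes. The order of levels was Pdgfrb, Cdh5, Rgs5, Pecam1, Emcn and Kdr from the top in both controls. Among the 10 genes Rgs5 stood at place 4 in mutant upper and place 8 in mutant lower molars. With no second library, neighbours in that order cannot be told apart by their spread.

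Pecam1 and Emcn are each listed with a pair of transcript entries at the same locus, and the way the level was split between the entries differed among libraries more than the summed level did. The Pecam1 entries differ by 57 bases in length. The 3305-base entry held 69.4% of Pecam1 in control upper, 48.2% in control lower, 36.8% in mutant upper and 17.6% in mutant lower molars, and its level was 5.53, 3.92, 2.69 and 0.994 FPKM. The 3248-base entry was at 2.43, 4.22, 4.61 and 4.65 FPKM in the same order. Both mutants thus had a smaller share of the longer Pecam1 entry than both controls. The Emcn entries differ by 39 bases. The 1422-base entry was near 0 in control upper molars (0.000161 FPKM) and at 3.34, 3.22 and 1.64 FPKM in control lower, mutant upper and mutant lower molars, where it held 44.9%, 61.0% and 35.6% of the gene. The entries share nearly all of their sequence, so the split rests on reads over a short stretch at a read depth of 4.25 to 8.33 per base for these genes, and no error is given for it.

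**Figure D3:**
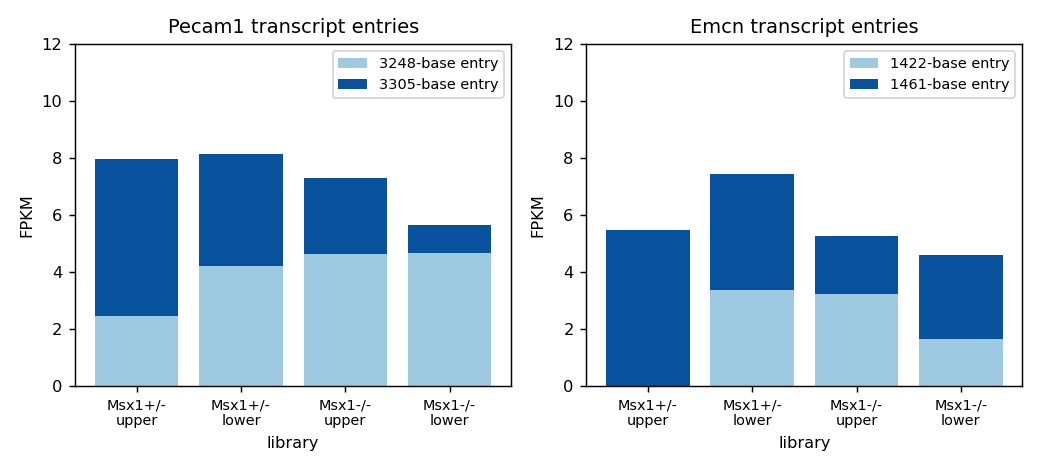
FPKM of the transcript entries of Pecam1 (left) and Emcn (right) in the 4 libraries, stacked so that the bar height is the level of the gene. The 3305-base Pecam1 entry is largest in control upper and smallest in mutant lower molars, and the 1422-base Emcn entry is near 0 in control upper molars alone.

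Other genes of the vessel wall were taken from lists of 143 genes in all, each of which was found in the tables. Of 30 other endothelial genes 24 passed the filter of a mean of at least 1 FPKM. In upper molars 1 was lower and 0 higher, with a median of -0.21, where 3.27% of all genes were lower and the all-gene median was -0.03. In lower molars 1 was lower and 0 higher, with a median of -0.35, where 9.41% of all genes were lower and the all-gene median was -0.39. After rescaling by median of ratios 0 were lower in lower molars and the median was -0.03. Their summed level was 152, 150.0, 119 and 100.4 FPKM. The mutant minus control difference, averaged over the jaws, was below 0 in 20 of the 24 and above 0 in 4. Its median was -0.36, beside -0.22 for all genes. After rescaling by median of ratios 17 were below 0 and 7 above, with a median of -0.17, beside -0.05 for all genes. The lower gene in upper molars was Egfl7, a secreted protein of endothelium (22.6, 11.5, 9.66 and 9.63 FPKM), in which the control upper library stands alone. The lower gene in lower molars was Esm1, a marker of sprouting tip cells (1.63, 2.79, 0.463 and 0.827 FPKM), named after its values were seen and uncounted after that rescaling. Ramp2, the adrenomedullin receptor partner and one of the most abundant of the list, was at 21.1, 21.3, 17.7 and 14.5 FPKM.

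Among 9 measured genes of arteries and tip cells, 3 were lower in both jaws and 0 higher, where 1.59% of all genes were lower and 0.399% higher. Their median was -0.39 in upper molars and -0.54 in lower molars, beside -0.03 and -0.39 for all genes. They were the Notch target gene Hey1 (26.4, 32.8, 6.64 and 3.07 FPKM), the ephrin ligand gene Efnb2 (19.7, 27.1, 7.07 and 6.56 FPKM) and the netrin receptor gene Unc5b (20.5, 13.4, 3.38 and 2.37 FPKM). In control upper molars all 3 were above Cdh5, and none of them is restricted to endothelium. In control lower molars Unc5b was below Cdh5 (18.1 FPKM) and the others above it. In mutant upper and lower molars all 3 were below Cdh5 (16.5 and 17.4 FPKM). The Notch ligand gene Dll4 (1.71, 1.96, 1.07 and 1.53 FPKM) and the gap junction gene Gja4 (1.66, 2.89, 2.10 and 1.67 FPKM), which mark arteries more narrowly, were not counted and were named after their values were seen. Of 5 measured venous and lymphatic genes 0 were counted in upper molars, where 3.27% of all genes were lower. Nrp2, a co-receptor of Vegfc, was lower in lower molars (17.9, 22.1, 13.4 and 4.82 FPKM), where 9.41% of all genes were. Ephb4, the receptor of venous endothelium, was at 19.2, 20.9, 23.2 and 20.4 FPKM.

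Of 12 other pericyte genes 7 were measured, and 0 were counted in upper molars, where 3.27% of all genes were lower. Their median there was -0.19, beside -0.03 for all genes. In lower molars 3 were lower and 0 higher, with a median of -0.49, where 9.41% of all genes were lower and the all-gene median was -0.39. The 3 were Mcam, an adhesion molecule of mural and endothelial cells (8.26, 11.0, 4.69 and 3.88 FPKM), and the mitochondrial subunit genes Cox4i2 (7.06, 9.71, 4.70 and 1.69 FPKM) and Ndufa4l2 (1.63, 3.13, 1.31 and 0.660 FPKM). Rescaling by median of ratios left 2 of them lower, without Mcam, and a list median of -0.14, beside -0.05 for all genes. Cox4i2 followed the order of Rgs5 within the mutants, with mutant lower below mutant upper. Notch3, the Notch receptor of mural cells, was at 10.5, 8.47, 6.19 and 6.40 FPKM. Of the 7 measured, Rgs4 alone lay above 0 in both jaws (0.365, 0.875, 1.47 and 1.36 FPKM). Its mutant minus control values, 0.85 for the upper jaw and 0.33 for the lower, stayed below the size counted. Rgs4 was picked once its values had been seen. The proteoglycan gene Cspg4 (2.24, 3.03, 2.42 and 2.52 FPKM) and the aminopeptidase gene Anpep (4.99, 6.44, 4.51 and 4.30 FPKM) were not counted, and these, with Cox4i2 and Ndufa4l2, were named after their values were seen. The genes of this list that averaged under 1 FPKM were also named after their values were seen. Higd1b (at most 0.132 FPKM) and Vtn (0 in every library) were at or near 0. Abcc9 was at 1.08, 1.27, 0.743 and 0.597 FPKM, with both mutants below both controls. Kcnj8 was at 0.335, 1.14, 0.362 and 0.773 FPKM and Des at 0.333, 0.184, 0.227 and 0.437 FPKM. Of the smooth muscle genes only Acta2 (2.53, 4.18, 15.2 and 3.57 FPKM) and Tagln (2.29, 3.51, 0.827 and 1.21 FPKM) were measured, and they went opposite ways. Acta2 was higher in mutant upper molars (2.20), where 1.08% of all genes were. Tagln was lower in mutant lower molars (-1.03), where 9.41% of all genes were, and at -0.85 in upper molars. The same rescaling brought Tagln under the size counted.

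**Figure D4:**
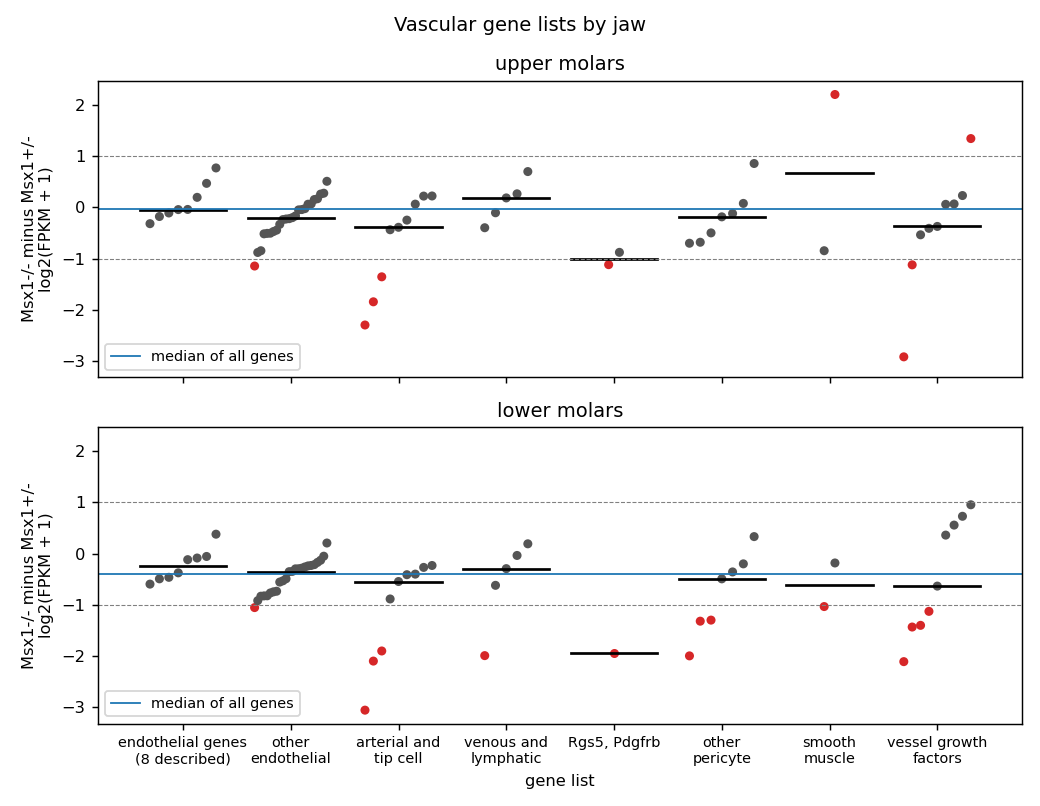
Mutant minus control difference of log2(FPKM + 1) for each measured gene of 8 vascular lists, in upper (top) and lower (bottom) molars. Red points differ by at least 1, black bars are list medians and the blue line is the median of all genes. None of the 8 endothelial genes is red in either jaw, and 3 arterial and tip cell genes are red in both.

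Ligands of the receptors were measured in the same libraries. Of 9 measured vessel growth factor genes, 2 were lower and 1 higher in upper molars, 4 were lower and 0 higher in lower molars, and 2 were lower in both. Of all genes, 3.27% were lower and 1.08% higher in upper molars and 9.41% and 0.862% in lower molars, and 1.59% were lower in both. After rescaling by median of ratios 3 were lower and 2 higher (Vegfc and Angpt1) in lower molars, and Pdgfc was not counted. On that scale 368 of all 10552 genes tested were lower and 212 higher in lower molars. Vegfa, the ligand of Kdr and Flt1, was at 11.9, 8.84, 4.93 and 2.74 FPKM, and Figf, which encodes Vegfd, a ligand of the lymphatic receptor Flt4, was at 10.5, 4.70, 0.519 and 0.324 FPKM. Vegfb, a ligand of Flt1, was at 23.8, 21.1, 24.8 and 27.4 FPKM. Angpt1, the activating ligand of Tek, was at 2.06 and 2.82 FPKM in control upper and lower molars and at 6.76 and 6.40 FPKM in mutant upper and lower molars, with both mutants above both controls. Its difference was 1.34 (upper) and 0.96 (lower), and it was counted in both after rescaling by median of ratios. Pdgfb, the ligand of Pdgfrb, was at 2.14 and 2.24 FPKM in the controls and 1.16 and 1.09 FPKM in the mutants, which was below the size counted. The others lower in lower molars were Pgf, a ligand of Flt1 (2.16, 3.69, 1.44 and 0.742 FPKM), and Pdgfc (5.83, 4.27, 7.01 and 1.42 FPKM). Vegfc, the main ligand of Flt4, was at 2.70, 2.07, 2.87 and 4.10 FPKM. Angpt1, Vegfc, Pdgfb, Pgf and Pdgfc were named after their values were seen.

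The 3 genes whose pattern over the 4 libraries lay nearest to that of Rgs5, among 5330 genes that averaged 5 FPKM or more, were Cdr2l, Cthrc1 and Efhd2. Nearness was the distance between log2 values centred on each gene's mean, at 0.149, 0.170 and 0.204. Cdr2l was at 8.14, 7.40, 4.30 and 1.48 FPKM, and the Wnt modulator gene Cthrc1 was at 23.2, 21.1, 12.2 and 4.06 FPKM. With 4 libraries many genes can share such an order.

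Blood cells and macrophages can carry some of these transcripts, so their markers are given beside the results. The 10 erythroid genes summed to 756, 932, 521 and 675 FPKM, of which the globins Hbb-y (360, 466, 257 and 322 FPKM) and Hba-x (214, 248, 135 and 152 FPKM) were the most abundant. Of 6 measured erythroid genes 0 were counted in either jaw, where 3.27% (upper) and 9.41% (lower) of all genes were lower. All 6 were below 0 in both jaws, with medians of -0.49 (upper) and -0.53 (lower), beside -0.03 and -0.39 for all genes. The 12 macrophage and leukocyte genes summed to 28.3, 39.1, 37.3 and 46.7 FPKM, led by Tyrobp (7.07, 12.2, 7.25 and 10.3 FPKM) and C1qb (6.97, 7.99, 8.62 and 10.3 FPKM). As deposited 0 of their 9 measured genes were counted, where 1.08% (upper) and 0.862% (lower) of all genes were higher. Of the 9, 8 were above 0 and 1 below in upper molars, and 5 above and 4 below in lower molars. Their medians were 0.54 (upper) and 0.34 (lower), beside -0.03 and -0.39 for all genes. After rescaling by median of ratios 2 (C1qc and Mrc1) were higher in lower molars, where 212 of all 10552 genes tested were. The 5 platelet genes summed to 3.57, 5.36, 6.13 and 7.21 FPKM. Pf4 (1.82, 2.23, 4.42 and 5.05 FPKM), the only one measured, was not counted as deposited and was higher in lower molars (1.23) after that rescaling. The other platelet genes did not share its rise in both jaws. Gp1bb (0.629, 0.793, 0.355 and 0.577 FPKM) and Gp9 (0.351, 0.693, 0.311 and 0.366 FPKM) were lower in the mutant of each jaw. Ppbp (0.625, 1.23, 0.850 and 0.886 FPKM) and Itga2b (0.145, 0.402, 0.200 and 0.332 FPKM) were higher in mutant upper and lower in mutant lower molars. Gata1 was at 0 in both mutants and Ptprc, which marks all leukocytes, at 0.259 to 0.552 FPKM. Gata1, Ptprc, C1qc, Mrc1, Gp1bb, Gp9 and Itga2b were named after their values were seen. The part of these cells in the Pecam1, Tek and Tie1 values was not tested. The 6 neural and glial genes summed to 0.668 to 2.71 FPKM, with Tubb3 under 1 FPKM in every library. The 6 skeletal muscle genes summed to 1.20 to 2.94 FPKM, with Tnnt1 at 0.493 to 1.99 and Actc1 at 0.341 to 0.809 FPKM.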

How the data were processed

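RNA was measured in 4 libraries of molar mesenchyme. Per the labels' protocols, RNA was extracted with a column kit for small samples and cDNA came from a NuGEN Ovation RNA-Seq v2 amplification, for which no strand marking is stated. Alignment was to mm9 with Bowtie 0.12.7 and TopHat 1.4.1, per the submitters' processing notes. Per the file headers, the deposited values are FPKM, coverage (mean read depth per transcript base, a signal) and a status flag for 28107 transcript entries in the layout of Cufflinks. Coverage was a constant times FPKM within a library (0.812 to 1.09).

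FPKM was summed per gene name (22072). Names of small RNAs under 400 bases (723) were left out, and a gene with a failed estimate in a compared library was left out of that comparison. Genes averaging 1 FPKM or more were kept (10594), and differences are of log2(FPKM + 1), which understates changes of low genes. With 1 library per group no single comparison has a test. Across all genes, limma 3.58.1 (R 4.3.3, trend option) served as an alternative, and Python 3.11.15 with pandas 2.3.3 did the rest. Both were tested on simulated data. Reads that overlap genes on opposite strands cannot be told apart. The genes and lists were chosen with earlier results of these data known. Named were the 10 genes, Msx1, the 2 most abundant of each list and those counted in both jaws, and the 3 genes nearest in pattern to the member with the largest mean genotype difference. One gene that this rule names is not reported here. Other names are said to be chosen after their values were seen. Start positions count from 0 in the tables, and 1 was added. Promoters are of another build (GRCm38.p6) and were not compared with mm9 positions.

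Tried as alternatives were a pseudocount of 0.1 or 5, no filter, a mean of at least 5 FPKM, 3 rescalings (median of ratios, common upper quartile, common total), the largest transcript in place of the sum, and, chosen after the data were seen, failed estimates kept.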

Additional observations from a re-analysis of the deposited data

Results flagged for a closer look

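In 2 of the 9 genes with estimates in every library, the mutant minus control difference of log2(FPKM + 1) had opposite signs in the jaws. For Cldn5 it was 0.77 in upper and -0.12 in lower molars, which is 0.88 more in upper molars, and the control upper library (2.09 FPKM) was the one apart from the others. For Tek it was 0.19 and -0.08, which is 0.28 more in upper molars, at 1.05 to 1.34 FPKM. After each of the 3 rescalings tried both genes were above 0 in both jaws. With 1 library per group the difference between jaws was not tested in either gene.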

How the results depend on the processing

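For single genes, 391 of 398 differences under the alternatives stayed on the same side of the size counted, and 0 counted values changed sign. Many of these could not move. The 47 with no filter, 22 with a mean of at least 5 FPKM and 47 with failed estimates kept repeat the main values by construction. So do the values of genes with only 1 transcript entry under the largest transcript. The count therefore overstates how far the differences were tried. Uncounted differences did change sign, as in lower molars for Cdh5 (-0.06 to 0.44), Pecam1 (-0.52 to 0.11), Cldn5 (-0.14 to 0.32) and Tek (-0.14 to 0.20) and between control jaws for Emcn (-0.44 to 0.34). With a pseudocount of 5, 0 genes were lower in upper molars (Pdgfrb at -0.97) and 0 were higher in mutant upper over mutant lower molars (Rgs5 at 0.63). With a pseudocount of 0.1, 1 gene was lower in control upper than control lower molars (Cldn5 at -1.24). Under each of the 3 rescalings 0 genes differed between the jaws in mutants. Keeping failed estimates gave 2 lower genes in lower molars (Rgs5 and Pdgfrb) and 1 in both jaws (Pdgfrb), and limma called 1 gene lower (Rgs5), against 0 counted in both jaws. Over all genes, rescaling by median of ratios changed the lower jaw from 91 higher and 994 lower to 212 higher and 368 lower. No paired test within a jaw was possible because each group has 1 library. The limma fit has jaw as a term, which sets mutant against control within each jaw. With 1 library per group none could be left out. Depth limits Tek, Flt1 and Tie1, with read depths of 1.03 to 3.07 per base, and on shorter transcripts Rgs5 in mutant lower (1.91) and Cldn5 in control upper molars (2.19).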
